A study of Mus musculus with 11 samples.

Results

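The loci described here are those of Nr4a1, Nr4a2 and Nr4a3, the 3 genes of the NR4A family of nuclear receptors, in peak lists of chromatin accessibility from the mouse dentate gyrus. Peaks within 50 kb of a given transcription start were taken, at mm9 chr15 101.097 Mb for Nr4a1, chr2 56.955 Mb for Nr4a2 and chr4 48.065 Mb for Nr4a3. Overlapping peaks (1 bp or more) of the 11 lists were joined into 35 regions at the 3 loci (17 at Nr4a1, 6 at Nr4a2 and 12 at Nr4a3) of 128823 in the whole series. The 35 regions rest on 188 peaks, 95 of them at Nr4a1, 47 at Nr4a2 and 46 at Nr4a3. The rule uses positions and no measured value.

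Accessibility was profiled by ATAC-seq, in which a transposase inserts sequencing adapters into open DNA, in 8-week-old C57BL/6 mice. All animals carried an adeno-associated virus, which expressed shRNA-Ctrl, a control hairpin RNA, or shRNA-cFos, a hairpin RNA that targets the immediate-early transcription factor c-Fos. Each library came from 1 mouse. The promoter of the shRNA and the cell types that took up the virus are not given in the sources used here, and the whole dissected tissue was used. With shRNA-Ctrl there were 3 libraries of each of the states E0 and E1, and with shRNA-cFos there were 3 of E0 and 2 of E1. The lists of E0 are named as sham, and E1 followed neuronal activation, which was electroconvulsive stimulation in the published study. None of the 11 mice was without virus.

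NR4A proteins are orphan nuclear receptors: they bind DNA and activate genes without a known natural ligand that controls them as a hormone would. Nr4a1 (Nur77), Nr4a2 (Nurr1) and Nr4a3 (Nor1) are immediate-early genes, transcribed within minutes of calcium and cAMP signalling, in large part through the activator CREB bound to cAMP response elements (CREs) in their promoters. In the hippocampus they are induced by neuronal activity and have been linked to memory consolidation. As monomers they recognise a DNA element called NBRE, and Nr4a1 and Nr4a2 also pair with the retinoid X receptor.

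The promoters are shown because CREs are the textbook route by which activity reaches these genes. The 250 bases before each start are given from RefSeq, build GRCm38.p6, 5′ to 3′ on the strand of the gene, at chr15:101266596-101266845 (plus strand), chr2:57124004-57124253 (minus strand) and chr4:48045055-48045304 (plus strand). Capitals mark the short form of the CRE, TGACG, or its reverse complement CGTCA. These positions belong to another build than the mm9 peaks and were not converted.
Nr4a1: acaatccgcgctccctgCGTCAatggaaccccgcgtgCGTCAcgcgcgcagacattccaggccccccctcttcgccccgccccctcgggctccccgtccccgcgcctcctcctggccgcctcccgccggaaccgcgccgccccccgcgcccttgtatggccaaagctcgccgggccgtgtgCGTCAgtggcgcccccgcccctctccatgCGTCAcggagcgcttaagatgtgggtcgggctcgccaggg
Nr4a2: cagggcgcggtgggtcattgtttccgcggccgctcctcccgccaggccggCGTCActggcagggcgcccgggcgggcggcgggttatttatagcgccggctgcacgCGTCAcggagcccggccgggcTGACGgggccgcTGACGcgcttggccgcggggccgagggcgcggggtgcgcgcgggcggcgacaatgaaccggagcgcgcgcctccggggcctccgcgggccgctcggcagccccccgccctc
Nr4a3: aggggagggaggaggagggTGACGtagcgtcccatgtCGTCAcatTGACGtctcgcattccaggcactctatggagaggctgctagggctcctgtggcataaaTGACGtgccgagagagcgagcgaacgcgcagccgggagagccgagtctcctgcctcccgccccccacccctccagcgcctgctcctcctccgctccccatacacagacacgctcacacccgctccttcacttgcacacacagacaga

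All 3 promoters held 4 short CREs, both strands counted, in a window from 250 bases before to 50 bases after the start. Among 32817 RefSeq windows of that length, 20.8% held at least 1 and 0.232% held 4 or more. The full palindromic CRE TGACGTCA had no match in any of the 3 windows, and 1.79% of all windows held one. Neither the AP-1 element TGANTCA, bound by c-Fos with Jun proteins, nor the NBRE letters AAAGGTCA matched in the 3 windows, against 7.81% and 1.51% of all windows. The short form lies within the full CRE, both strands were searched for every motif, and a match of letters is a description and not a binding site. The windows were rich in G and C, at 72.33% for Nr4a1, 81.67% for Nr4a2 and 64.67% for Nr4a3, beside a median of 52.67% over all windows. The shares over all windows were not matched for this content, and its part in the motif counts was not tested.

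The lists differ 3.12-fold in length, from 25145 peaks in shRNA-Ctrl E0 replicate 1 to 78349 in shRNA-Ctrl E1 replicate 1 on chromosomes 1 to 19 and X. The 3 longest were shRNA-Ctrl E1 replicates 1 and 3 (78349 and 75908) and shRNA-cFos E0 replicate 2 (74432), while the other shRNA-Ctrl E0 and shRNA-cFos E0 lists held 28391 to 33134. Read depth is unknown, so a longer list and a deeper library cannot be told apart. Covered lengths of the windows, and counts of regions called in 1 group and not in another, are therefore also given with every list shortened. Each list then keeps its 25145 highest scores, called equal list length below. Widths and positions of single regions are mostly given as deposited only, and those of the Nr4a1 start region have no value at equal list length. In tissue samples a site open in fewer cells and a site less open in each cell cannot be told apart either. The labelled tissue could not be checked against marker genes, because no mm9 annotation was used here.

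At all 3 loci a few regions recurred in every library, and many others appeared in few. Of the 35 regions, 10 (28.6%) were called in all 11 libraries, 12 in 2 to 10 and 13 (37.1%) in 1. Over the whole series 11796 of 128823 regions (9.16%) were called in all 11 and 37.9% in 1. The regions called in all 11 numbered 4 at Nr4a1, 3 at Nr4a2 and 3 at Nr4a3. At equal list length 18 regions were left (10, 3 and 5), and 7 of them were called in all 11. The 9.16% is a share as deposited, and the like share of the 59301 regions at equal list length was not counted.

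**Figure D1:**
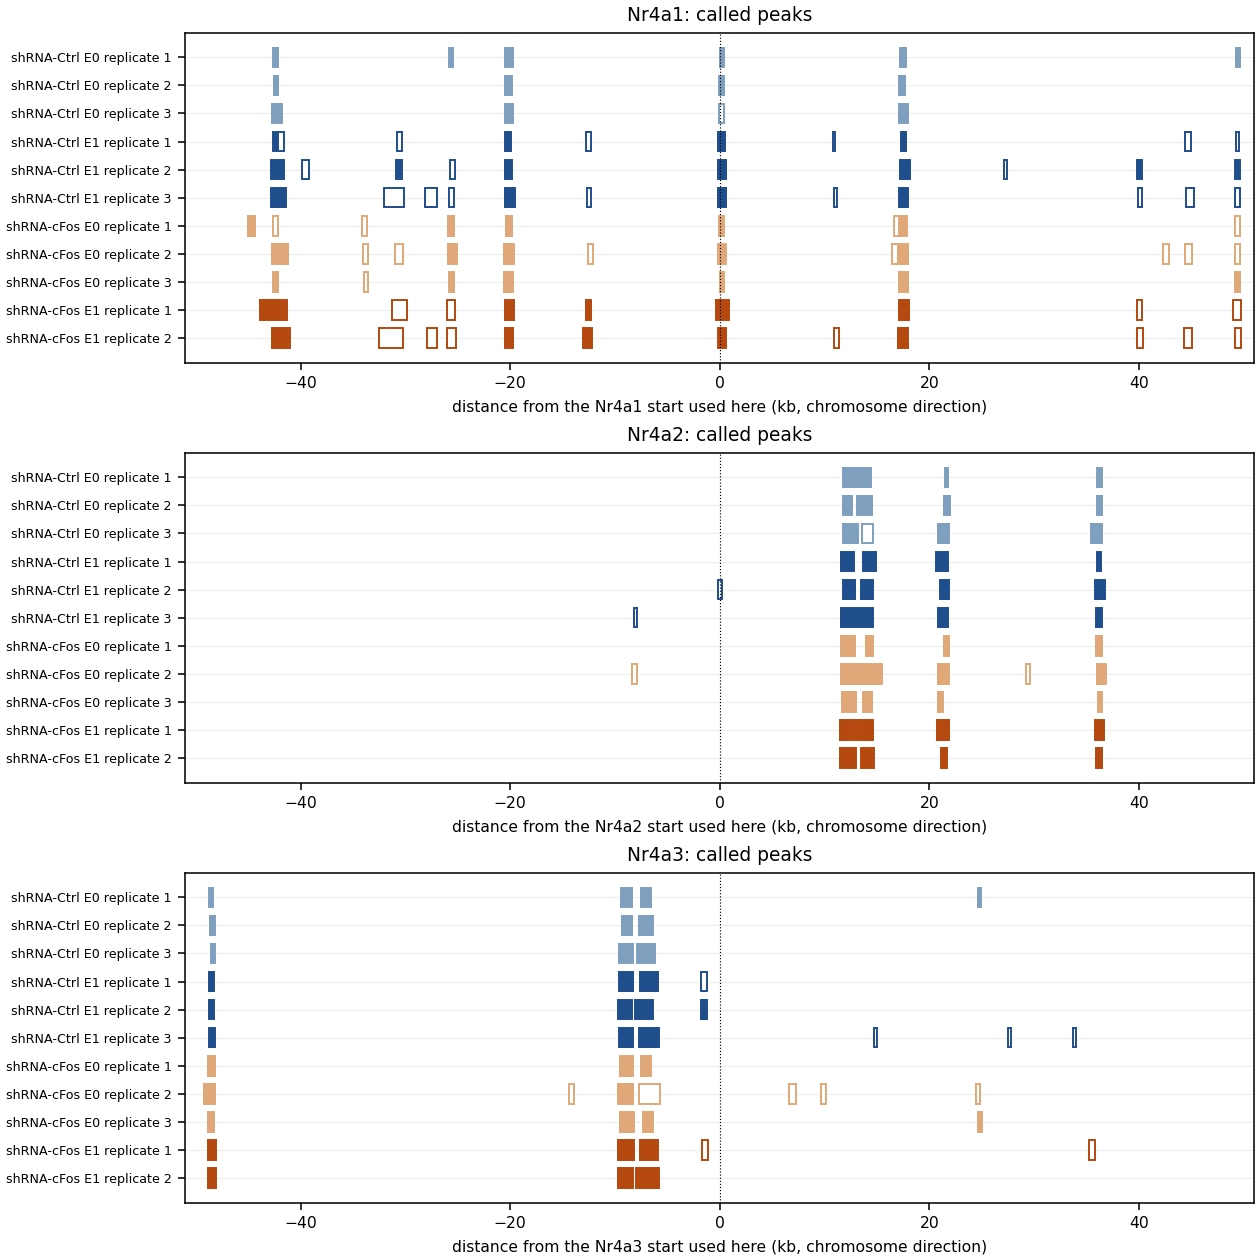
Peaks called in each of the 11 libraries (rows, coloured by group) against the distance from the start used for Nr4a1, Nr4a2 and Nr4a3 (kb, in the direction of chromosome coordinates). Filled bars are peaks kept at equal list length and open bars are peaks lost; the peak at the Nr4a1 start recurs in all 11 rows, whereas the dotted lines at Nr4a2 and Nr4a3 meet a peak in 1 row and in none.

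At the starts used, a peak recurred for Nr4a1 and not for the other two genes. The Nr4a1 start lies in a region at mm9 chr15:101096654-101097874, called in all 11 libraries, and in 10 at equal list length, where shRNA-Ctrl E0 replicate 3 dropped out. Within 1 kb of the Nr4a2 start the only region, chr2:56954881-56955238, was called in 1 library, shRNA-Ctrl E1 replicate 2, with a score of 56.27. No region lay within 1 kb of the Nr4a3 start. The nearest, chr4:48063208-48063906, ended 1094 bp before it and is described below with the regions not called in all 11 libraries.

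The recurring regions nearest to the other starts were wide. At Nr4a2 a region of 4047 bp, chr2:56966442-56970488, was centred at +13.5 kb, where plus means a higher chromosome coordinate, and was called in all 11 libraries. At Nr4a3 a pair of adjacent regions, chr4:48055249-48056837 at -9.0 kb and chr4:48056940-48059290 at -6.9 kb, was called in all 11. The starts were given to the nearest 1 kb and could not be set against an mm9 annotation. A misplaced start would by itself leave no recurring peak at the position used and would shift every window value of that gene, which was not tested. Which of these regions, if any, holds the Nr4a2 or Nr4a3 promoter was therefore not read, nor whether a region is exonic, intronic or between genes. In RefSeq (GRCm38) the nearest protein-coding genes without overlap are Grasp and Atg101 for Nr4a1, Kcnj3 and Gm52512 for Nr4a2, and Sec61b and Stx17 for Nr4a3. The gene LOC105244150 overlaps Nr4a2. Distances to these genes were not read, and a window of 50 kb may hold elements of other genes.

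The region at the Nr4a1 start was on average wider at E1 with both shRNAs, a difference that did not pass adjustment over all regions. Its peaks covered 388, 405 and 446 bp in the shRNA-Ctrl E0 libraries (413 ± 29.8, SD, n = 3) and 675, 733 and 718 bp at shRNA-Ctrl E1 (709 ± 30.1, n = 3). With shRNA-cFos they covered 476, 709 and 411 bp at E0 (532 ± 157, n = 3) and 1221 and 829 bp at E1 (1025 ± 277, n = 2). The E1 and E0 libraries overlapped through 1 pair: shRNA-cFos E0 replicate 2, from the longest E0 list, at 709 bp lay above shRNA-Ctrl E1 replicate 1 at 675 bp.

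The mean E1 minus E0 difference of the 2 shRNA groups was 0.87 on the log2 scale, a 1.83-fold greater width. A two-sided exact permutation of the E0 and E1 labels within shRNA groups gave p = 0.01, and Benjamini-Hochberg adjustment over the 11796 regions called in all 11 libraries gave 0.332. Of those regions 10.8% were wider at E1 with an unadjusted p under 0.05, none passed after adjustment, and 1.38% were at least as much wider as the Nr4a1 start region. Their median difference was 0.15, or 1.11-fold. The difference was 0.78 within shRNA-Ctrl and 0.96 within shRNA-cFos, and the difference between these (0.18) had an exact permutation p of 0.635.

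The peak also stood higher among the scores of its list at E1. The score is the peak caller's own value on a scale that is not stated, so the position in the list ordered by score was used, with 1 as the highest. Positions were 12446.5, 23057.5 and 26325.5 at shRNA-Ctrl E0 and 8557.5, 6750.5 and 8519 at shRNA-Ctrl E1. They were 24168, 13940 and 10090.5 at shRNA-cFos E0 and 4600 and 9678 at shRNA-cFos E1. Every E1 library placed this peak higher than every E0 library, which held for 1.87% of the 11796 regions.

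On the log2 scale, chosen after seeing the data, the position at E1 minus E0 was -1.24, a 2.37-fold smaller position number (exact permutation p = 0.01, Benjamini-Hochberg adjusted 0.149 over 11796 regions, of which 5.94% moved up with an unadjusted p under 0.05). As a percentage of the list, where long lists give lower values, 49.5, 81.2 and 89.2% of peaks scored at least as high at shRNA-Ctrl E0, and 10.9, 19.03 and 11.2% at shRNA-Ctrl E1. With shRNA-cFos the values were 72.9, 18.7 and 35.5% at E0, and 9.53 and 23.8% at E1. On this percent scale E1 and E0 overlapped. The difference was -42.6 percentage points (exact permutation p = 0.02, Benjamini-Hochberg adjusted 0.328), with 12.8% of regions higher at an unadjusted p under 0.05 and 0.280% moving up at least as far.

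**Figure D2:**
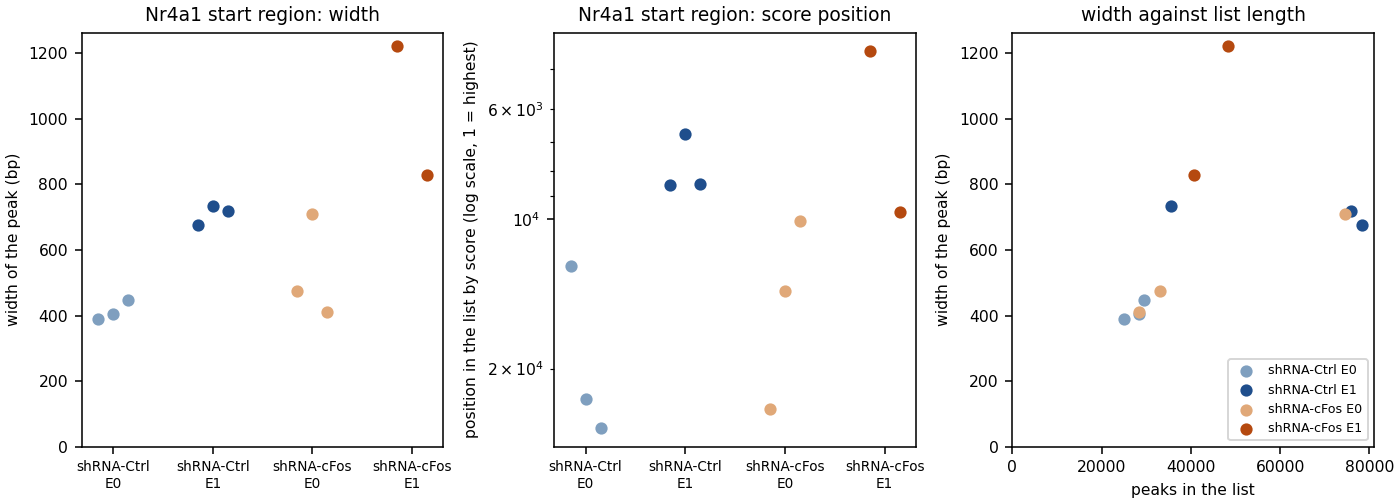
The region at the Nr4a1 start in each library (points, coloured by group): width in bp, position of its best score in the list (log axis, inverted, 1 is the highest score) and width against the number of peaks in the list. Widths at shRNA-Ctrl E0 lie between 388 and 446 bp and at shRNA-Ctrl E1 between 675 and 733 bp; all 5 E1 positions (4600 to 9678) lie above the 6 E0 positions (10090.5 to 26325.5).

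List length moved with part of this pattern. Of the E0 libraries, shRNA-cFos E0 replicate 2, with 74432 peaks, had the widest peak. Among the E1 libraries the longest lists, of 78349 and 75908 peaks, gave the narrowest peaks, 675 and 718 bp. The E1 lists of 35474, 40627 and 48262 peaks gave 733, 829 and 1221 bp. The part of list length in the widths was not tested. Set against each library's median width over the regions called in all 11, a comparison chosen after seeing the data, the log2 difference between E1 and E0 was 0.68 (exact permutation p = 0.005, Benjamini-Hochberg adjusted 0.285).

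The c-Fos shRNA went with a wider peak at the Nr4a1 start as well. The shRNA-cFos minus shRNA-Ctrl difference was 0.42 on the log2 scale (exact permutation of shRNA labels within E0 and within E1, p = 0.01, Benjamini-Hochberg adjusted 0.333). Of all regions called in every library 12.5% were wider with shRNA-cFos at an unadjusted p under 0.05, and 16.5% were at least as much wider, so a difference of this size was common in the series. The log2 difference of the position in the list was -0.31 (exact permutation p = 0.34, with 4.47% of regions higher at an unadjusted p under 0.05).

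Across the whole Nr4a1 locus more length was covered at E1, and most of the difference lay in regions not called in all 11 libraries. Peaks within 50 kb of the start covered 2950, 1992 and 2983 bp at shRNA-Ctrl E0 (2642 ± 563, SD, n = 3) and 4704, 6625 and 9809 bp at shRNA-Ctrl E1 (7046 ± 2578, n = 3), a 2.67-fold ratio of means. They covered 4936, 9013 and 3940 bp at shRNA-cFos E0 (5963 ± 2688, n = 3) and 9454 and 11490 bp at shRNA-cFos E1 (10472 ± 1440, n = 2), a 1.76-fold ratio. Within each shRNA group all E1 libraries lay above all E0 libraries, as in 3.59% of 100 kb tiles. The exact permutation p was 0.1 with shRNA-Ctrl and 0.2 with shRNA-cFos, where the smallest that such groups allow is 0.1.

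Over both shRNA groups the Nr4a1 window held 4457 bp more at E1 (two-sided exact permutation p = 0.01, Benjamini-Hochberg adjusted 0.300 over the 3 loci and the 23259 tiles of 100 kb with a peak). Of these tiles 11.6% were higher at E1 with an unadjusted p under 0.05, none passed after adjustment, and 0.129% differed by at least as much, beside a median of 251 bp. Here and below the tiles were not matched for the number of regions they hold, which was 17 at Nr4a1. The part of that number in the shares of tiles was not tested. The differences were 4404 bp with shRNA-Ctrl and 4509 bp with shRNA-cFos, and the test of the difference between them gave an exact permutation p of 0.96. The 4 regions called in all 11 libraries made up 28.8% of the difference (1284 bp) and the 13 others 71.2% (3172 bp).

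Shortening the lists reduced the difference at Nr4a1 and ended the separation of the shRNA-Ctrl groups. The window then held 2950, 1992 and 2537 bp at shRNA-Ctrl E0 and 2167, 5205 and 3900 bp at shRNA-Ctrl E1. It held 3052, 4969 and 3533 bp at shRNA-cFos E0 and 6033 and 5117 bp at shRNA-cFos E1. With shRNA-Ctrl, E1 replicate 1 now lay among the E0 libraries, while with shRNA-cFos both E1 libraries stayed above E0. The difference was 1494 bp (exact permutation p = 0.045, Benjamini-Hochberg adjusted 0.326, now with 19983 tiles), with 11.9% of tiles higher at an unadjusted p under 0.05 and 1.37% at least as high. Leaving out single libraries at equal list length moved it from 1132 bp (without shRNA-Ctrl E1 replicate 2, p = 0.1) to 1892 bp (without shRNA-Ctrl E1 replicate 1, p = 0.02) by the same exact permutation, with p at 0.05 or above in 10 of the 11 cases.

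The Nr4a1 window was also larger with the c-Fos shRNA than with the control shRNA. At E0 the means were 5963 and 2642 bp, a 2.26-fold ratio without overlap of the libraries (exact permutation p = 0.1, the smallest possible with 3 against 3). At E1 they were 10472 and 7046 bp, with overlap, since shRNA-Ctrl E1 replicate 3 (9809 bp) exceeded shRNA-cFos E1 replicate 1 (9454 bp). Over both states the difference was 3374 bp (exact permutation p = 0.025, Benjamini-Hochberg adjusted 1), where 3.94% of tiles were higher with shRNA-cFos at an unadjusted p under 0.05. With shortened lists it was 1588 bp (exact permutation p = 0.035, adjusted 0.466; 8.55% of tiles).

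**Figure D3:**
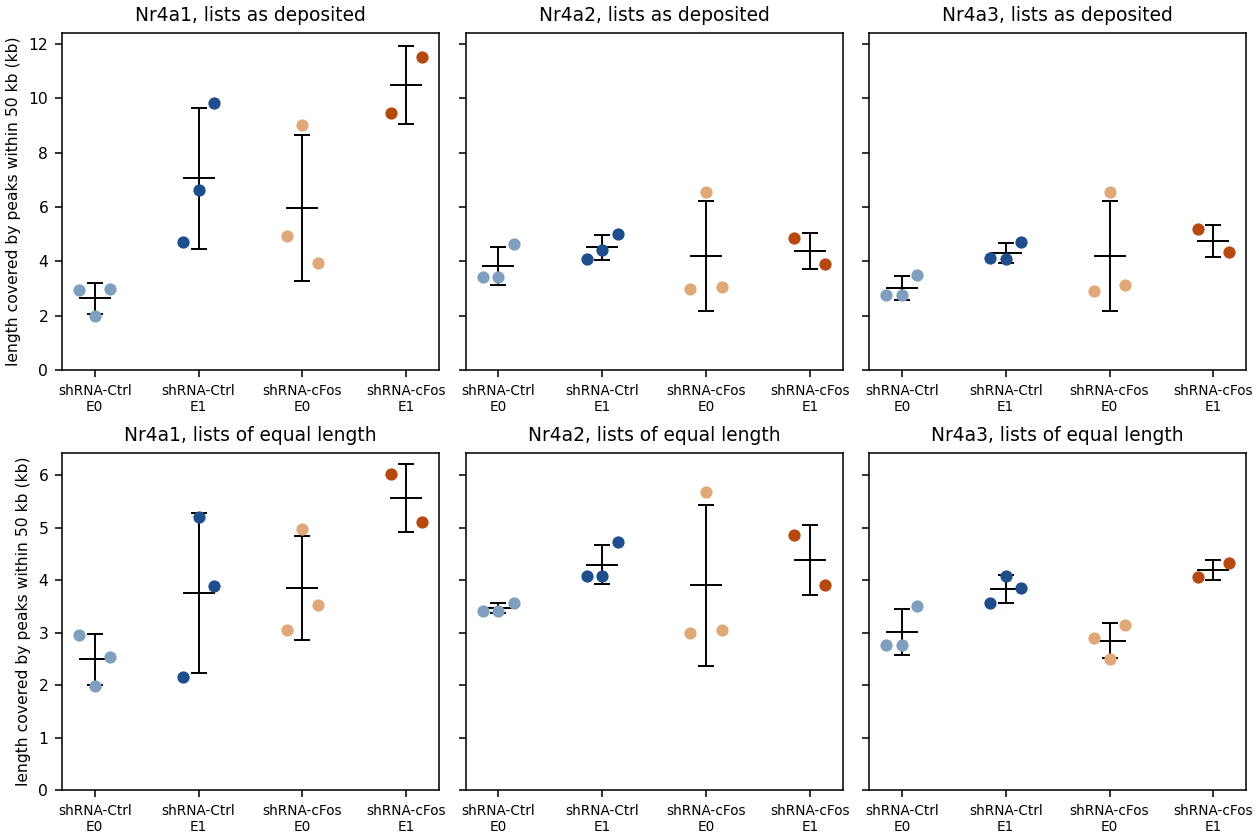
Length covered by peaks within 50 kb of each start (kb, y axis from 0; points are libraries, bars the mean and SD of a group) for Nr4a1, Nr4a2 and Nr4a3, as deposited (top) and at equal list length (bottom). At Nr4a1 as deposited the E1 points lie above the E0 points within each shRNA; at Nr4a3 at equal list length all 5 E1 points (3562 to 4334 bp) lie above the 6 E0 points (2500 to 3520 bp).

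At Nr4a2 the covered lengths of E0 and E1 overlapped. It was 3415, 3417 and 4644 bp at shRNA-Ctrl E0 and 4089, 4431 and 5017 bp at shRNA-Ctrl E1. It was 2996, 6534 and 3048 bp at shRNA-cFos E0 and 4863 and 3911 bp at shRNA-cFos E1. This held with both shRNAs, and the highest value came from shRNA-cFos E0 replicate 2, which has the longest E0 list. The E1 minus E0 difference was 441 bp (exact permutation p = 0.61, Benjamini-Hochberg adjusted 0.930), and 35.4% of tiles differed by at least as much.

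With shortened lists the Nr4a2 difference was 654 bp (exact permutation p = 0.295, Benjamini-Hochberg adjusted 0.726). There the shRNA-Ctrl libraries separated, with 3415, 3417 and 3573 bp at E0 and 4089, 4073 and 4727 bp at E1, and the shRNA-cFos libraries did not. Without shRNA-cFos E0 replicate 2 the difference was 1097 bp with an exact permutation p of 0.0167 (adjusted 0.191). For shRNA-cFos against shRNA-Ctrl the Nr4a2 difference was 121 bp as deposited (exact permutation p = 0.885) and 265 bp at equal list length (p = 0.74).

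At Nr4a3 the states overlapped as deposited and separated at equal list length. As deposited its window held 2765, 2759 and 3520 bp at shRNA-Ctrl E0 and 4128, 4082 and 4718 bp at shRNA-Ctrl E1. It held 2908, 6542 and 3153 bp at shRNA-cFos E0 and 5181 and 4334 bp at shRNA-cFos E1. The difference was 926 bp (exact permutation p = 0.25, Benjamini-Hochberg adjusted 0.675), and the overlap came from shRNA-cFos E0 replicate 2 alone. Without that library the difference was 1511 bp (exact permutation p = 0.0167, Benjamini-Hochberg adjusted 0.0848).

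In its shortened list that library held 2500 bp at Nr4a3, since 5 of its 7 peaks there fell below the scores kept. The peak at -6.9 kb, of 2042 bp, was among those lost, at position 25887.5 in a list cut after 25145 peaks. Its score was 157.66 and the lowest score kept was 162.22. With that peak the recurring regions of this library covered 4542 bp, more than any E1 library at equal list length. The separation below therefore depends on where this list was cut. The other shRNA-cFos E0 libraries held 2908 and 3153 bp, the shRNA-Ctrl E0 libraries 2765, 2759 and 3520 bp, the shRNA-Ctrl E1 libraries 3562, 4082 and 3859 bp and the shRNA-cFos E1 libraries 4055 and 4334 bp. All 5 E1 libraries lay above all 6 E0 libraries, as in 3.15% of tiles. The difference was 1080 bp, with an exact permutation p of 0.005, the smallest that the 200 arrangements can give, and a Benjamini-Hochberg adjusted value of 0.148; 3.37% of the 19983 tiles differed by at least as much. It ranged from 992 to 1207 bp when single libraries were left out. For shRNA-cFos against shRNA-Ctrl the Nr4a3 differences were 817 bp as deposited (exact permutation p = 0.185) and 99.6 bp at equal list length (p = 0.65).

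The other regions called in all 11 libraries differed widely in how E1 compared with E0. Of the 10 regions, 9 were wider at E1 on average, but the median log2 difference over all 11796 regions was also positive, at 0.15. Of the 10, 3 were wider with an unadjusted exact permutation p under 0.05, at a background of 10.8% of the 11796 regions. With widths set against the library median, 5 of the 10 were wider at E1, 2 of them with an unadjusted p under 0.05 (the Nr4a1 start region and the one at -42.4 kb). The shares of all regions that match these centred counts were not counted. At Nr4a1 the region at -42.4 kb, chr15:101053113-101055993, had the greatest difference of the 10. It covered 546, 440 and 1005 bp at shRNA-Ctrl E0, 937, 1208 and 1437 bp at shRNA-Ctrl E1, 501, 1495 and 541 bp at shRNA-cFos E0, and 2547 and 1738 bp at shRNA-cFos E1. E0 and E1 overlapped through 1 E0 library of each shRNA, replicate 3 of shRNA-Ctrl and replicate 2 of shRNA-cFos.

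Its E1 minus E0 difference was 1.21 on the log2 scale, or 2.32-fold (exact permutation p = 0.025, Benjamini-Hochberg adjusted 0.357), and 0.297% of regions were at least as much wider. Its position differed by -26.1 percentage points of the list (exact permutation p = 0.145) and by -0.30 on the log2 scale (p = 0.485). The remaining 2 recurring Nr4a1 regions, at -20.1 kb (chr15:101076387-101077430) and +17.3 kb (chr15:101113478-101115143), had width differences of 0.07 (exact permutation p = 0.7) and -0.04 (p = 0.875).

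The region at -20.1 kb had the highest scores of the locus. Its position was 2572 to 5731 at E0 and 2876 to 4547.5 at E1, so it stood high in every list and overlapped between the states. At +17.3 kb the mean position at E1 was higher in the list than at E0 with shRNA-Ctrl and lower with shRNA-cFos. Its positions were 12374, 11923.5 and 10710 at shRNA-Ctrl E0, 10555.5, 11144.5 and 9602 at shRNA-Ctrl E1, 7979.5, 8645.5 and 7938 at shRNA-cFos E0, and 11877 and 12218 at shRNA-cFos E1. The 3 shRNA-cFos E0 libraries placed it highest of all 11.

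The 3 recurring regions at Nr4a2 overlapped between E0 and E1 in both width and position. The wide region at +13.5 kb covered 2692, 2398 and 2528 bp at shRNA-Ctrl E0, 2451, 2334 and 3111 bp at shRNA-Ctrl E1, 2019, 3760 and 2183 bp at shRNA-cFos E0, and 2934 and 2761 bp at shRNA-cFos E1. Its log2 width difference was 0.10 (exact permutation p = 0.61), and it was the widest of the 10 regions in every library. The region at +21.3 kb (chr2:56975620-56976935) had a difference of 0.65 (exact permutation p = 0.15, Benjamini-Hochberg adjusted 0.573) and the region at +36.1 kb (chr2:56990388-56991832) one of 0.15 (p = 0.615). At +21.3 kb single libraries ranged from 271 to 1064 bp at E0 and from 533 to 1184 bp at E1.

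At Nr4a3 the adjacent pair before the start was on average wider at E1, and the position differences of its members had opposite signs. The region at -9.0 kb covered 1093, 958 and 1349 bp at shRNA-Ctrl E0, 1290, 1376 and 1352 bp at shRNA-Ctrl E1, 1279, 1443 and 1256 bp at shRNA-cFos E0, and 1589 and 1454 bp at shRNA-cFos E1. Its log2 width difference was 0.23 (exact permutation p = 0.035, Benjamini-Hochberg adjusted 0.381), and 36.5% of regions were at least as much wider. Against the library median the width difference was 0.037 (exact permutation p = 0.72). As a percentage of the list its position differed by 2.94 points (exact permutation p = 0.425), and by 0.0079 points without shRNA-Ctrl E1 replicate 2. Its position number, which can grow with the length of the list, was greater at E1, that is lower in the score order, with a log2 difference of 0.77 (exact permutation p = 0.01, Benjamini-Hochberg adjusted 0.149; 11.6% of regions were lower at an unadjusted p under 0.05). The medians were 4491 at E0 and 7362.5 at E1, with ranges of 2799 to 5355 and 4067 to 9434.

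Its neighbour at -6.9 kb covered 1001, 1302 and 1712 bp at shRNA-Ctrl E0, 1763, 1715 and 1868 bp at shRNA-Ctrl E1, 959, 2042 and 941 bp at shRNA-cFos E0, and 1731 and 2192 bp at shRNA-cFos E1. The difference was 0.56 on the log2 scale, or 1.47-fold (exact permutation p = 0.075, Benjamini-Hochberg adjusted 0.469), and shRNA-cFos E0 replicate 2 alone stood among the E1 libraries. Against the library median the width difference was 0.37 (exact permutation p = 0.065). As a percentage of the list its position differed by -20.5 points, that is higher at E1 (exact permutation p = 0.04, Benjamini-Hochberg adjusted 0.335; background 12.8%), and on the log2 scale by -0.36 (p = 0.48). With peaks within 200 bp merged the pair became 1 region, whose percent position differed by 0.21 points (exact permutation p = 0.935). The third recurring region, at -48.6 kb (chr4:48015810-48016921), had a width difference of 0.09 between E1 and E0 (exact permutation p = 0.7) and one of 0.54 between shRNA-cFos and shRNA-Ctrl (p = 0.01, adjusted 0.333; background 12.5%). It covered 428 to 499 bp at shRNA-Ctrl E0, 479 to 639 bp at shRNA-Ctrl E1, 562 to 1057 bp at shRNA-cFos E0, and 688 and 735 bp at shRNA-cFos E1.

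**Figure D4:**
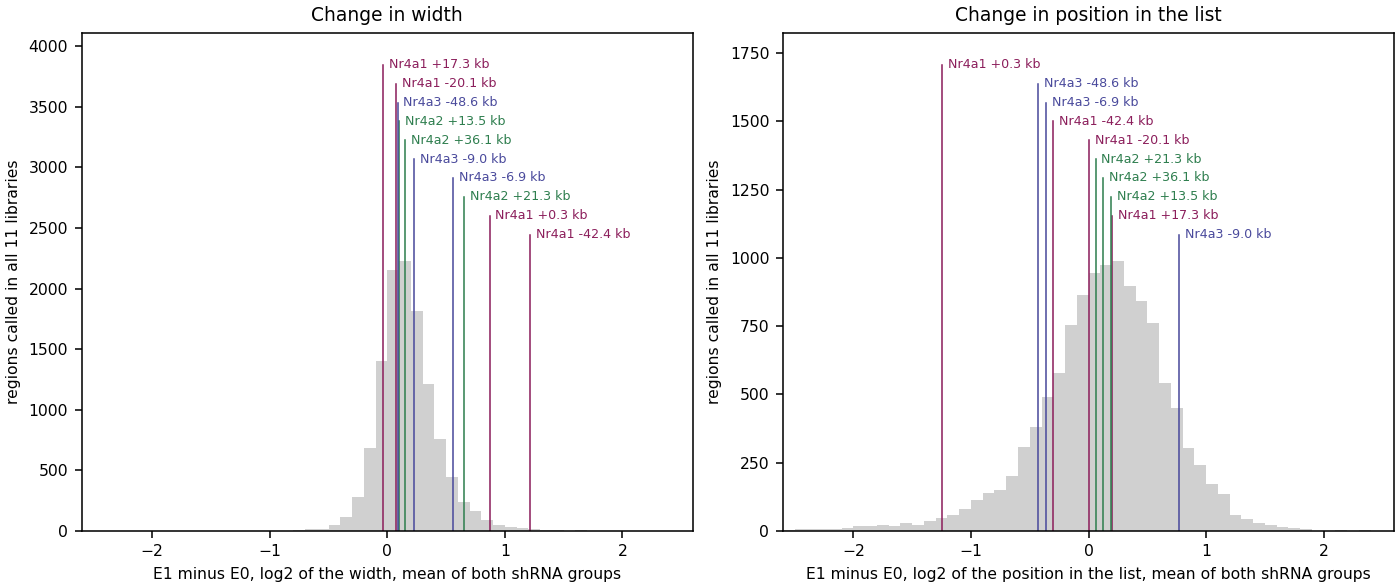
E1 minus E0 difference of the log2 width (left) and of the log2 position in the score order (right; negative is higher in the list) for the 11796 regions called in all 11 libraries (grey counts) and for the 10 of them at the Nr4a loci (lines, coloured by gene; their heights only separate the labels). The Nr4a1 region at -42.4 kb (1.21) and the Nr4a1 start region at +0.3 kb (0.87) lie in the upper tail of width, and the start region alone of the 10 lies at -1.24 in position.

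Regions that set whole groups apart lay only at Nr4a1. Between shRNA-Ctrl E1 and shRNA-Ctrl E0, 1 of the 35 regions was called in every E1 and no E0 library, or 2.86%, where 6.04% of all regions were. This region, chr15:101064524-101067155 at -31.2 kb, was called in the 5 E1 libraries and, of the 6 E0 libraries, in shRNA-cFos E0 replicate 2. It covered 509, 645 and 1856 bp at shRNA-Ctrl E1, 1444 and 2272 bp at shRNA-cFos E1 and 769 bp in that E0 library.

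The scores at -31.2 kb were low, from 68.74 to 134.94, and at equal list length only shRNA-Ctrl E1 replicate 2 still called it. The test of its calls over all 11 libraries gave an exact permutation p of 0.02 (Benjamini-Hochberg adjusted 0.570 over 128823 regions, of which 3.51% had an unadjusted p under 0.05). Of the 18 regions at equal list length none separated shRNA-Ctrl E1 from shRNA-Ctrl E0, against 3.51% of all regions. No Nr4a region was called in every shRNA-Ctrl E0 and no shRNA-Ctrl E1 library, as deposited (0.0442% of all regions) or at equal list length (1.15%).

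With the c-Fos shRNA, 1 region was called only at E1 and 1 only at E0. The first, chr15:101136798-101137385 at +40.1 kb, was called in both shRNA-cFos E1 libraries and also in shRNA-Ctrl E1 replicates 2 and 3, and in no E0 library (1.96% of all regions were called in every shRNA-cFos E1 and no shRNA-cFos E0 library). Its calls also gave an exact permutation p of 0.02 (Benjamini-Hochberg adjusted 0.570). At equal list length shRNA-Ctrl E1 replicate 2 alone still called it, and both shRNA-cFos E1 calls, with scores of 58.05 and 77.34, were lost. The second, chr15:101062904-101063446 at -33.8 kb, was called in all shRNA-cFos E0 mice (3 libraries) and nowhere else. Regions in every shRNA-cFos E0 library made up 0.548% of all regions when absent at shRNA-cFos E1, and 1.11% when absent at shRNA-Ctrl E0.

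The -33.8 kb peaks were near the lowest score of the lists, at 54.95, 54.95 and 53.83 against a minimum of 50, covered 407 to 469 bp, and were all lost at equal list length. That reading brought out other regions. The one at -12.6 kb (chr15:101083904-101084859) was then called in both shRNA-cFos E1 libraries and no other (3.39% of regions against shRNA-cFos E0, 1.7% against shRNA-Ctrl E1), although as deposited shRNA-Ctrl E1 replicates 1 and 3 and shRNA-cFos E0 replicate 2 called it too. The one at -25.5 kb (chr15:101070999-101071936) was called in 8 libraries as deposited, and at equal list length in all 3 shRNA-cFos E0 libraries and shRNA-Ctrl E0 replicate 1 only (1.54% of regions against shRNA-cFos E1).

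In the remaining directions no Nr4a region set the groups apart. As deposited, none was called in every shRNA-Ctrl E0 and no shRNA-cFos E0 library (0.0217% of all regions), in every shRNA-cFos E1 and no shRNA-Ctrl E1 library (0.534%), or in every shRNA-Ctrl E1 and no shRNA-cFos E1 library (1.59%). With shortened lists none was called in all shRNA-cFos E0 and no shRNA-Ctrl E0 library (0.96%), the opposite (0.418%), or all shRNA-Ctrl E1 and no shRNA-cFos E1 library (1.08%).

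A few regions chosen after their values were seen were called in 3 or more libraries of one state and none of the other. At E1 they were 3 of the 35 (8.57%, against 4.74% of all regions): +40.1 kb and +11.1 kb at Nr4a1, and the region before the Nr4a3 start. The last, chr4:48063208-48063906, was called in shRNA-Ctrl E1 replicates 1 and 2 and shRNA-cFos E1 replicate 1, with scores of 93.18, 104.31 and 77.6 and 512 to 566 bp covered. Its calls gave an exact permutation p of 0.08 (Benjamini-Hochberg adjusted 1), and at equal list length shRNA-Ctrl E1 replicate 2 alone kept it. At E0 they were 2 of the 35 (5.71%, against 0.407% of all regions): -33.8 kb at Nr4a1, and +24.7 kb at Nr4a3 (chr4:48089438-48090006), called in replicate 1 of shRNA-Ctrl E0 and replicates 2 and 3 of shRNA-cFos E0. The remaining regions called in 2 to 10 libraries were at -27.6, +44.8 and +49.4 kb of Nr4a1 (2, 4 and 9 libraries) and at -8.1 kb of Nr4a2 (2 libraries).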

How the data were processed

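ATAC-seq peak lists of 11 dentate gyrus libraries, 1 mouse each, were used. Reads were aligned with Bowtie2 to mm9, per the submitters' processing notes, and the peak names in the deposited lists carry the name of the caller MACS. The sources used here do not give versions, read filters, a transposase shift or calling settings. The deposited score of each peak (50 to 3100) has no stated scale and was used for ranks within a list and 1 minimum. Counts of reads are not in these lists, so depth and its error are unknown, and precision is limited by the number of libraries.

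Peaks on chromosomes 1 to 19 and X were kept (554 of 498212 left out), merged where they shared at least 1 bp, and measured as calls, covered length, and position by score (ties share the mean rank). At equal list length each list kept its 25145 highest scores. Two-sided exact tests permuted the state among libraries of the same shRNA, or the shRNA among libraries of the same state, over all 200 arrangements, with Benjamini-Hochberg adjustment over all windows, all regions, or all regions called in 11 libraries. Differences of the E1 effects between the shRNA groups were tested by permuting the shRNA among libraries of the same state. That test is exact only if the shRNAs do not differ in either state. The code was tested on simulated lists. The members, the motif list and the rules for named regions (those within 1 kb of a start, those called in all 11 libraries, and those setting whole groups apart) were chosen with earlier results of these data known. Alternatives were a score of at least 100, windows of 25 and 100 kb, peak numbers, merging within 200 bp, 50% of a region covered, ties kept, a replicate block and each library left out. Coordinates were not converted to the GRCm38.p6 build of the RefSeq promoters, and genes other than Nr4a1, Nr4a2 and Nr4a3 were not placed. Replicate numbers were not used as pairs in the main tests. Over 11796 regions, deviations of same-numbered shRNA-Ctrl E0 and E1 libraries correlated at -0.06, 0.13 and 0.16, and those of differently numbered ones at -0.20 to 0.06. Between shRNA-Ctrl E0 and shRNA-cFos E0 the values were 0.07, -0.02 and -0.10, and -0.10 to 0.13. The shRNA-cFos E1 libraries were not compared in this way, and whether same-numbered libraries shared a batch was not settled. Python 3.11.15, numpy 2.4.6, pandas 2.3.3 and matplotlib 3.10.9 were used.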

Additional observations from a re-analysis of the deposited data

Results flagged for a closer look

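The position in the score order of the Nr4a1 region at +17.3 kb, as a percentage of the list, differed between E1 and E0 in opposite directions in the 2 shRNA groups. It was 23.3 percentage points lower, that is higher in the order, at E1 with shRNA-Ctrl, and 6.13 points greater with shRNA-cFos. The difference of 29.4 points had a two-sided exact permutation p of 0.03, with the shRNA permuted among libraries of the same state. It was 1 of 48 such differences computed at the 3 loci, the only one with an unadjusted p under 0.05, and its Benjamini-Hochberg adjusted value over the 48 was 1. The percentage scale also carries the list length, which was greatest in shRNA-Ctrl E1 replicates 1 and 3, and its part in the difference was not tested.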

How the results depend on the processing

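Of 500 alternative values 32 turned the direction and none reached an adjusted p under 0.05 (Benjamini-Hochberg, exact permutation tests). Not all of them could: the counts of regions among them had no test, and the replicate block allows no p under 0.0625. The 200 arrangements of the main tests allow no p under 0.005, which limits what can pass adjustment over so many windows or regions. The Nr4a1 window kept its direction under every alternative run, but a score of at least 100 gave 2093 bp for E1 (exact permutation p = 0.11) and 1401 bp for shRNA-cFos (p = 0.265), and windows of 25 kb gave 1008 and 941 bp (exact permutation p = 0.03 and 0.015). In number of peaks it gave 3.58 (exact permutation p = 0.04) and 2.25 (p = 0.145). For E1, a score of at least 100 gave 1038 bp at Nr4a2 (exact permutation p = 0.31) and 1536 bp at Nr4a3 (p = 0.025). Leaving out single libraries gave 3766 to 5219 bp for E1 minus E0 and 2611 to 4064 bp for shRNA-cFos minus shRNA-Ctrl, and the width of the start region 0.73 to 1.01. Those ranges for E1 were 142 to 1026 bp at Nr4a2 and 602 to 1511 bp at Nr4a3. For shRNA-cFos they were -464 to 420 bp at Nr4a2, where leaving out shRNA-cFos E0 replicate 2 (-464) or shRNA-cFos E1 replicate 1 (-117) turned the sign, and 232 to 1141 bp at Nr4a3. The cause was not tested.

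At Nr4a2 the E1 difference turned to -0.17 as a number of peaks and to -44.5 bp per Mb as a share of all covered length, a measure chosen after seeing the data. That share also turned Nr4a3 to -19.8 for E1, and Nr4a2 and Nr4a3 to -41.7 and -9.05 for shRNA-cFos. The Nr4a2 difference for shRNA-cFos was -133 bp with a score of at least 100 and -53.6 bp within 100 kb.

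Counts of regions setting groups apart were small. For shRNA-Ctrl E1 against E0 the count of 1 became 0 at equal list length, ties kept or not, and 1 to 4 without single libraries. For shRNA-cFos E1 against E0 it was 0 at a score of 100, 3 with 50% of a region covered and 1 to 3 without single libraries. The E0-only count was 0 at a score of 100, and 1 to 2. For shRNA-cFos E0 against shRNA-Ctrl E0 it was 0 at equal list length, ties kept or not, 0 at a score of 100, 4 with 50% covered and 1 to 3. For shRNA-cFos E1 against shRNA-Ctrl E1 the count of 0 became 1 at equal list length, ties kept or not, 2 with 50% covered, 1 within 100 kb and 0 to 1.

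The remaining turns came under alternatives chosen after seeing the data. Widths centred on the library median gave -0.12 (Nr4a1 -20.1 kb), -0.090 (Nr4a2 +13.5 kb), -0.036 (Nr4a2 +36.1 kb) and -0.10 (Nr4a3 -48.6 kb). The width at Nr4a1 +17.3 kb was 0.20 at equal list length. Without single libraries it ranged from -0.16 to 0.17, that at Nr4a1 -20.1 kb from -0.035 to 0.17 and that at Nr4a3 -48.6 kb from -0.010 to 0.22. Score ranks in percentage points turned at equal list length from -8.59 to 5.22 (Nr4a1 +17.3 kb), -5.07 to 5.25 (Nr4a2 +13.5 kb), -19.8 to 1.08 (+21.3 kb) and -11.5 to 3.46 (+36.1 kb). That at Nr4a3 -6.9 kb turned from -20.5 to 0.21 with peaks within 200 bp merged. As log2 positions they became 0.0028 (Nr4a1 -20.1 kb), 0.20 (Nr4a1 +17.3 kb) and 0.19, 0.060 and 0.12 at Nr4a2.

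With the replicate number as a block the Nr4a1 window differed by 3951 bp for E1 (exact permutation p = 0.0625, the smallest of that design) and 4064 bp for shRNA-cFos, Nr4a2 by 155 and 247 bp, and Nr4a3 by 664 and 919 bp. A library without a same-numbered partner had no weight: shRNA-cFos E0 replicate 3 for E1, and shRNA-Ctrl E1 replicate 3 for shRNA-cFos. These differences therefore equal those with that library left out. By the same exact permutation the Nr4a1 start region gave 0.79 in width (p = 0.0625) and -44.4 points in rank (p = 0.125), and Nr4a3 -48.6 kb gave -0.010. With shortened lists or a score of at least 100 the width and rank of the Nr4a1 start region gave no value, since not all 11 libraries called it. The planned width and rank of an Nr4a2 or Nr4a3 promoter region were not run, as none within 1 kb of the start used recurred.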
